A study of Homo sapiens with 16 samples.

Results

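The 29 genes described here are transporters, brush border proteins and enzymes by which a proximal tubule cell of the kidney is usually recognised. They were taken by name from a table of 57773 genes counted in 16 RNA-seq libraries of 4 clear cell renal cell carcinoma (ccRCC) lines, and all 29 were found in it. The lines were A498, 769-P, CAKI-2 and 786-O. Each had been infected with a lentivirus that carried Cas9, 1 guide RNA and puromycin resistance, and the resistant population was used without picking clones. The groups were sgCtrl, the control guide (1 library in each of the 4 lines), sgKDM5C, with guides 4 and 5 against the histone demethylase gene KDM5C (1 library per guide in each line), and sgKDM5D, with guides 2 and 4 against its Y-linked homologue KDM5D (1 library per guide in 786-O and CAKI-2). The question was which of these genes each cancer line still transcribed, and whether their levels differed in cells that carried sgKDM5C or sgKDM5D.

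The proximal tubule takes back most of the glucose, amino acids, phosphate and small proteins that the glomerulus filters, and secretes organic anions and cations from the blood. Its apical membrane is folded into a brush border that holds carriers, endocytic receptors and peptidases, while its cytoplasm makes glucose, arginine and creatine precursors. ccRCC is generally held to arise from this epithelium, which is known to switch much of this programme off when it is injured or becomes malignant.

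Libraries held 23.4M to 41.6M counts (M for 1000000), so that 3 counts, the limit set by a count of 0, corresponded to 0.0691 to 0.128 counts per M (CPM). KDM5C itself stood at 26.2% to 57.3% of the control in the 8 sgKDM5C libraries and at 91.5% to 106% in the 4 sgKDM5D libraries. KDM5D transcripts stood at 76.2% and 79.1% of the control in the sgKDM5D libraries of 786-O and at 66.01% and 85.8% in its sgKDM5C libraries, and in CAKI-2 at 102% and 103% with sgKDM5D and 107% and 82.9% with sgKDM5C. Of 7 markers of ccRCC cells, PAX8, KRT8, KRT18, VIM and CDH2 were at 1 CPM or more in every library. CA9 reached 1 CPM in every library of A498 only, and NDUFA4L2 in every library of A498 and of CAKI-2 only. Both were at 0 in 769-P. Of 14 markers of endothelial, immune, stromal and blood cells, 1 or 2 reached 1 CPM in a line, COL1A1 in all 4, and their sum was 5.93 to 43.5 CPM. Each library was set against the mean of the other libraries of its line. By this measure sgKDM5C 4 of 786-O and sgKDM5C 4 of 769-P lay farthest, with a mean absolute log2 deviation of 0.283 and 0.310 over 12075 genes, against 0.107 to 0.230 in the other libraries. Each library of a line carried its own guide and so came from a separately infected population, with 1 library per guide. The p-values below measured the spread between the guides of a target. No guide was repeated within a line, so that spread of guide, culture and technique could not be told apart. A difference between lines compared these lines only. In these bulk libraries a lower level could be fewer expressing cells or less RNA per cell, which cannot be told apart.

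A gene was counted as transcribed in a line when it reached 1 CPM in every library of that line. By this measure 786-O transcribed 9 of the 29 genes, CAKI-2 14, A498 13 and 769-P 17. The share of all 19404 protein-coding genes that did so was 57.5% in 769-P, 62.4% in A498, 63.1% in CAKI-2 and 56.8% in 786-O. At this threshold the share of these genes was below that of protein-coding genes in every line but 769-P (58.6% against 57.5%). There too it was below at 5 CPM (37.9% against 49.6%) and at 1 RPKM, the CPM per 1000 bases of transcript (41.4% against 51.7%). The count of every line includes the injury receptor HAVCR1, which the healthy tubule hardly makes. No pair of lines transcribed the same set. The 5 genes transcribed in all 4 lines were the scaffold PDZK1, the brush border enzymes GGT1 and DPP4, the fructose-metabolising kinase KHK and the injury receptor HAVCR1, while 52.1% of protein-coding genes were transcribed in all 4. The 9 genes transcribed in none were SLC22A6, SLC22A8, SLC5A1, SLC5A2, SLC6A19, PCK1, FBP1, AGMAT and GLYAT, against 31.6% of protein-coding genes. The other 15 genes were transcribed in 1 line (4 genes; background 6.28%), 2 lines (4 genes; 5.02%) or 3 lines (7 genes; 5.09%).

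**Figure D1:**
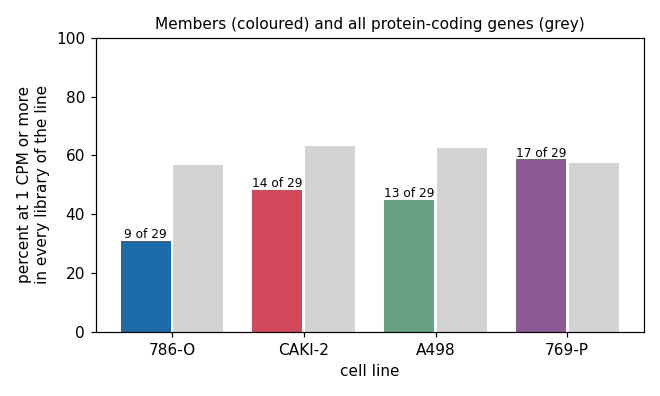
Percent of genes at 1 CPM or more in every library of a line (vertical axis) for each cell line (horizontal axis). Coloured bars show the 29 proximal tubule genes, with the number transcribed above each (9, 14, 13 and 17), and grey bars all 19404 protein-coding genes. In 769-P alone the coloured bar reaches the grey one, which the share also did at 0.5 CPM but not at 5 CPM or 1 RPKM.

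By role, all 4 brush border enzymes were transcribed in 786-O, A498 and 769-P, and GGT1 and DPP4 in CAKI-2. Of the 3 endocytic receptor genes, CAKI-2 and 769-P transcribed all 3, A498 2 and 786-O none. Of the 11 carriers of phosphate, dicarboxylates, organic ions, glucose and amino acids, 769-P transcribed 4, CAKI-2 3, A498 2 and 786-O 1, and of the 8 metabolic enzymes CAKI-2 transcribed 4, 769-P 3 and A498 and 786-O 2 each. Per length of the canonical transcript, the highest members in 769-P were HAVCR1 at 325 ± 25.6 RPKM (± SD, n = 3), SLC3A1 at 163 ± 26 and GGT1 at 123 ± 24.8. In CAKI-2 they were GGT1 at 93.3 ± 5.97 RPKM (n = 5), HAVCR1 at 46.7 ± 4.36 and DPP4 at 46 ± 5.36, the last pair closer than their spread. In 786-O they were GGT1 at 86.2 ± 20.5 RPKM (n = 5), HAVCR1 at 72.3 ± 16.5, the first pair closer than their spread, and DPP4 at 22.1 ± 6.90, and in A498 ANPEP at 60.7 ± 2.18 RPKM (n = 3), GGT1 at 18 ± 0.939 and DPP4 at 11.2 ± 0.782.

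**Figure D2:**
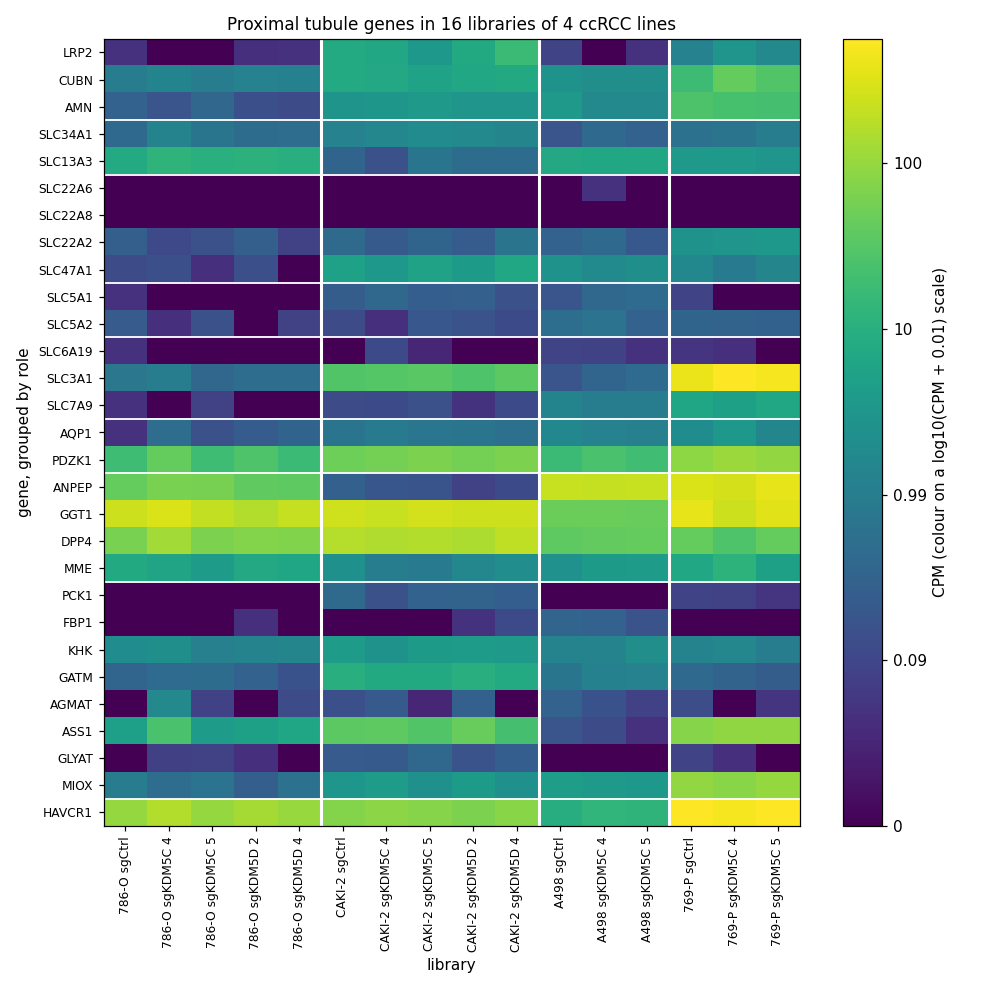
Level of the 29 genes (rows, grouped by role) in each of 16 libraries (columns, grouped by line), as colour on a log10(CPM + 0.01) scale with the CPM written beside the colour bar. Rows such as SLC22A8 are at 0 throughout, GGT1 and DPP4 are bright in every line, and SLC3A1, ASS1, ANPEP and MIOX change colour from one line to the next, with the sgKDM5C 4 library of 786-O brighter than the others of its line for ASS1.

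Of the 29 genes, 23 passed the filter of at least 60 counts in sum over the 16 libraries and were tested, and SLC22A6, SLC22A8, SLC6A19, PCK1, FBP1 and GLYAT were not. edgeR's quasi-likelihood test called 22 of the 23 as differing between the lines at an adjusted p under 0.05, all but AGMAT, and it called 91.5% of all 20175 genes tested, so that a difference between lines was the rule for any gene. Lines were compared over their sgCtrl and sgKDM5C libraries (3 per line), the genotypes they had in common, and in pairs of lines 15 to 20 of the 23 passed the test. For 786-O against CAKI-2 it called 18 (65.0% of all genes called), with 4 higher in 786-O (29.2% of all genes) and 14 lower (35.8%). For 786-O against A498 it called 17 (70.0%), with 7 higher in 786-O (31.4%) and 10 lower (38.6%). For 786-O against 769-P it called 15 (52.4%), with 2 higher in 786-O (25.4%) and 13 lower (27.0%). For CAKI-2 against A498 it called 18 (67.3%), with 13 higher in CAKI-2 (34.4%) and 5 lower (32.9%). For CAKI-2 against 769-P it called 20 (65.8%), with 7 higher in CAKI-2 (36.2%) and 13 lower (29.5%). For A498 against 769-P it called 17 (71.1%), with 3 higher in A498 (38.8%) and 14 lower (32.3%). The numbers called did not stand far from the background, while most of the members called lay on the side of 769-P in each of its 3 pairs.

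The median log2 difference of the 23 genes was -2.15 for 786-O against 769-P, -1.38 for CAKI-2 against 769-P and -1.37 for A498 against 769-P, where the medians of all genes tested were -0.01, 0.09 and 0.15. It was -1.15 for 786-O against CAKI-2 (all genes -0.11) and 1.06 for CAKI-2 against A498 (all genes 0.01). For 786-O against A498 it was -0.91 (all genes -0.16), and -0.13 when the 3 genes with a group of libraries at 0 were set at the floor of 3 counts per library. Every library of 769-P lay above every library of the other lines for 10 of the 23 genes, HAVCR1 among them, where 11.4% of all genes did. CAKI-2 stood apart as highest for 5 (14.1% of all genes), 786-O for 1 (8.67%) and A498 for 0 (19.8%). At the other end, 786-O stood apart as lowest for 5 genes (9.35% of all genes), A498 for 4 (15.9%), CAKI-2 for 3 (8.37%) and 769-P for 0 (10.3%).

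The promoters of 3 genes are printed as examples of genes that stood apart as highest in 769-P and hold the letters searched for. These letters are the HNF4 core in PDZK1 and the core letters of the hypoxia-inducible factors (HIF) in AMN and ASS1. HIF is known to be active in most ccRCC. The windows are RefSeq sequences of build GRCh38.p14, a later build than the GRCh37 of the counts, 300 bases around an annotated start, 5′ to 3′ on the gene's strand, and capitals mark CAAAGTCCA (HNF4 core) and ACGTG or its reverse complement CACGT (HIF core), which overlap each other where they run together as a palindrome.
PDZK1 (chr1:145707319-145707618, minus strand): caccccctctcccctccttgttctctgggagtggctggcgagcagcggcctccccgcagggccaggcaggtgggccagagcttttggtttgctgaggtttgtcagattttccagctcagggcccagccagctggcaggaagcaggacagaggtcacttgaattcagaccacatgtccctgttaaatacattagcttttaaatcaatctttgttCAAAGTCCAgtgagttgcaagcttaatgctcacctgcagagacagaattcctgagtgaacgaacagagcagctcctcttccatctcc
AMN (chr14:102922413-102922712, plus strand): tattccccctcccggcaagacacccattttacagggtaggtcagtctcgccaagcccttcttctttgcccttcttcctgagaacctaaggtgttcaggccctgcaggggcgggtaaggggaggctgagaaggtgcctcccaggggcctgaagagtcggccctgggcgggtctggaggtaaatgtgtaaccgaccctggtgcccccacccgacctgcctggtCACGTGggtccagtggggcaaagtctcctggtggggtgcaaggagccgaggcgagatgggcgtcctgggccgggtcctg
ASS1 (chr9:130444711-130445010, plus strand): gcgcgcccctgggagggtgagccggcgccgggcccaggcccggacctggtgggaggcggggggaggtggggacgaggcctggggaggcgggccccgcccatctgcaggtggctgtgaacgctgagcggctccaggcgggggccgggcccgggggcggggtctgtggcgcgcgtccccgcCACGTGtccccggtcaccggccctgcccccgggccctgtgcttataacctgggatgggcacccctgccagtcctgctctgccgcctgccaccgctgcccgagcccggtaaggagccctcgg
RefSeq promoters were matched for 23 of the 29 genes, in 30 windows, and searched on both strands. The HNF4 core was in 2 of the 30 (6.67%) and in 0.384% of all 35116 windows. Both were overlapping windows of PDZK1. The HIF core was in 6 of the 30 (20%) and in 21.4% of all windows, so that its share among these genes was near that of promoters at large. The 6 belonged to AMN, SLC22A2, DPP4, MME, GATM and ASS1. By level, AMN, ASS1 and SLC22A2, the last not printed, stood apart as highest in 769-P, DPP4 and GATM in CAKI-2 and MME in no line. Whether the letters go with the levels was not tested. These are matches of letters and not sites shown to be bound.

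Megalin (LRP2, GRCh37 chr2:169983619-170219044) and cubilin (CUBN) are the pair of receptors that retrieve filtered proteins, and amnionless (AMN) carries cubilin to the apical surface. In the order sgCtrl, sgKDM5C 4, sgKDM5C 5 and, where present, sgKDM5D 2 and sgKDM5D 4, used for all values below, LRP2 stood at 8.14, 7.19, 3.39, 7.53 and 16.9 CPM in CAKI-2 and at 1.28, 2.99 and 1.69 CPM in 769-P. Over all libraries it had 3 counts in 786-O and 3 in A498, at the floor. CAKI-2 and 769-P therefore transcribed megalin, did not overlap, and differed by a log2 value of 1.66 ± 0.38 SE (adjusted p = 0.00154), and both differed from 786-O and A498 (adjusted p = 3.2e-07 for CAKI-2 against 786-O and 1.5e-05 for 769-P against A498). CUBN reached 17.8, 41.5 and 28.3 CPM in 769-P, 7.87, 7.43, 5.39, 6.82 and 7.63 CPM in CAKI-2 and 2.68, 2.21 and 2.21 CPM in A498. In 786-O it lay at 0.978, 1.40, 1.04, 1.25 and 1.21 CPM, around the threshold. The 4 lines did not overlap and every pair of them passed the test, the closest being A498 and 786-O with a log2 difference of 1.05 ± 0.24 SE (adjusted p = 0.00137).

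AMN followed the same order at its ends, at 26.8, 22.9 and 22.7 CPM in 769-P and 0.301, 0.171, 0.359, 0.131 and 0.110 CPM in 786-O, a log2 difference of 6.43 ± 0.25 SE (adjusted p = 7.7e-11). It stood at 2.92, 3.28, 3.69, 2.92 and 3.0 CPM in CAKI-2 and 3.62, 1.73 and 1.71 CPM in A498, where the control library lay among those of CAKI-2 and both sgKDM5C libraries lay below them. The difference between CAKI-2 and A498 (0.58 ± 0.20 SE, adjusted p = 0.0178) turned to -0.31 with the control libraries alone (adjusted p = 0.465), and it was not called without CAKI-2 sgKDM5C 5, A498 sgKDM5C 4 or A498 sgKDM5C 5 (adjusted p = 0.0543, 0.157 and 0.163). AMN overlaps CDC42BPB on the annotation, which had 1269 to 3957 counts per library. Only in CAKI-2 and 769-P were both receptors and the carrier of cubilin present together at 1 CPM or more.

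The apical phosphate carrier NaPi-IIa (SLC34A1) was low in all lines, at 1.28 to 1.93 CPM in CAKI-2, 0.577 to 0.987 in 769-P, 0.414 to 1.33 in 786-O and 0.170 to 0.413 in A498. CAKI-2 was called higher than each of the other lines, and overlapped 786-O only through the sgKDM5C 4 library of 786-O. Without the control library of 786-O the call against that line was lost (adjusted p = 0.0977). NaDC3 (SLC13A3), which brings dicarboxylates such as succinate into the cell, ran the opposite way. It stood at 7.97, 12.1, 10.2, 11.5 and 9.30 CPM in 786-O, whereas CAKI-2 had 0.328, 0.140, 0.691, 0.468 and 0.459 CPM, a log2 difference of 4.60 ± 0.33 SE (adjusted p = 2.5e-08). A498 at 6.61 to 7.23 CPM and 769-P at 3.04 to 3.63 CPM lay between them, and 786-O and A498 were not called as different (adjusted p = 0.0851).

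The organic anion transporters OAT1 (SLC22A6) and OAT3 (SLC22A8), which take up drugs and uremic toxins on the basolateral side, were not detected beyond 1 count of SLC22A6 in A498, and SLC22A8 had 0 counts in all 16 libraries, which allows up to 0.128 CPM in the shallowest of them. The organic cation transporter OCT2 (SLC22A2) was seen above the threshold in 769-P only, at 2.68, 3.02 and 3.33 CPM, where the other lines reached at most 0.672 CPM and none overlapped it (3.21 ± 0.40 SE, adjusted p = 6.0e-06 against CAKI-2). Its apical partner MATE1 (SLC47A1), which exports cations to the urine, was highest in CAKI-2 at 5.19, 3.42, 5.53, 3.78 and 6.89 CPM. It reached 1.84 to 2.72 CPM in A498, 0.925 to 1.61 CPM in 769-P and 0 to 0.137 CPM in 786-O. Uptake and export carriers of cations were thus highest in different lines, and no line transcribed both by the threshold, 769-P missing it for SLC47A1 in 1 library of 3.

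The sodium-glucose cotransporters SGLT2 (SLC5A2) and SGLT1 (SLC5A1) were below 1 CPM in every library, at no more than 17 and 12 counts. SLC5A2 shares its locus with RUSF1, which had 1112 to 3656 counts. Low as it was, SLC5A1 was called higher in CAKI-2 and A498 (4 to 11 and 4 to 12 counts per library) than in 786-O and 769-P (0 to 1 and 0 to 2 counts), with adjusted p of 8.6e-04 for CAKI-2 against 786-O and 0.00143 for A498 against 769-P. Of the 71 counts of SLC5A1, 42 were in CAKI-2 and 26 in A498. It passed the filter of 60 counts only through these lines, in which it was then called higher. The filter and these calls thus rest on the same counts. The neutral amino acid carrier B0AT1 (SLC6A19) had at most 3 counts in any library and was not tested.

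The cystine carrier is made of a heavy chain, rBAT (SLC3A1), and a light chain, b0,+AT (SLC7A9), the genes altered in cystinuria. SLC3A1 (GRCh37 chr2:44502597-44548633) was abundant in 1 line, at 403, 557 and 489 CPM in 769-P and 28.4, 32, 33.8, 28 and 35.6 CPM in CAKI-2. It lay at 0.752, 0.991, 0.359, 0.493 and 0.478 CPM in 786-O and 0.170, 0.338 and 0.456 CPM in A498. Neither 769-P nor CAKI-2 overlapped any other line, and 769-P exceeded CAKI-2 by a log2 value of 3.94 ± 0.18 SE (adjusted p = 2.0e-10) and A498 by 10.62 ± 0.27 SE (adjusted p = 1.9e-12). SLC3A1 overlaps PREPL on the other strand, which had 687 to 934 counts in 786-O beside 10 to 29 of SLC3A1, and since the use of strand in counting was not given, reads of the 2 genes in that line could not be told apart.

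The light chain SLC7A9 was also highest in 769-P, at 6.30, 4.91 and 6.99 CPM, followed by A498 at 1.36, 0.976 and 1.03 CPM. CAKI-2 had 1 to 6 and 786-O 0 to 2 counts per library. In 769-P both chains were transcribed, whereas CAKI-2 had the heavy chain with a light chain at the floor, and A498 had the light chain near 1 CPM with a heavy chain at no more than 0.456 CPM.

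**Figure D3:**
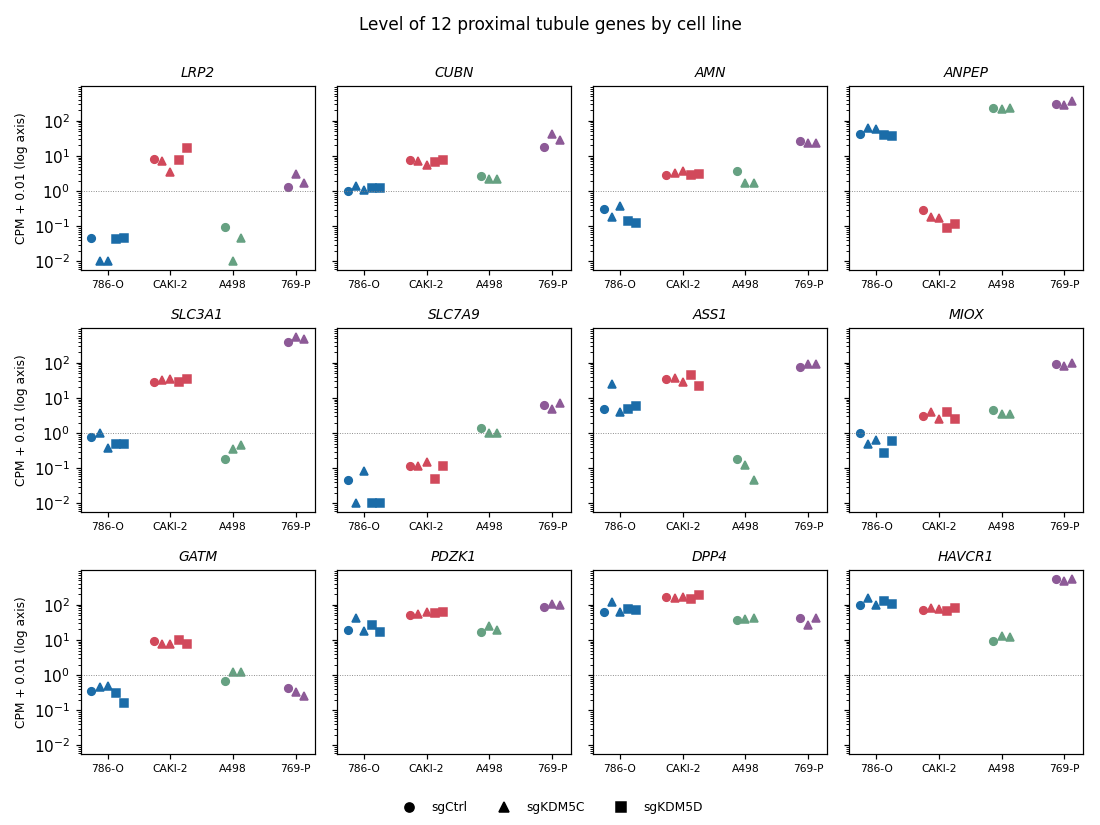
CPM + 0.01 (vertical log axis) of 12 of the 29 genes in every library of the 4 lines (horizontal axis); circles are sgCtrl, triangles sgKDM5C and squares sgKDM5D, and the dotted line marks 1 CPM. The 3 libraries of 769-P lie above all others for CUBN, AMN, ANPEP, SLC3A1, SLC7A9, ASS1, MIOX, PDZK1 and HAVCR1, CAKI-2 lies lowest for ANPEP and A498 lowest for ASS1 and HAVCR1.

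The water channel AQP1, by which the proximal tubule reabsorbs water, was low throughout at 1.52 to 3.34 CPM in 769-P, 1.18 to 1.66 in A498, 0.566 to 0.872 in CAKI-2 and 0.0376 to 0.478 in 786-O. 769-P and A498 overlapped and were not called as different (adjusted p = 0.0645), while all 5 libraries of 786-O lay below those of the other lines. On the annotation used here, AQP1 shares 910 exonic bases with another protein-coding gene on the same strand. For GGT1 and SLC3A1 the bases so shared are 2472 and 1761. How reads of such bases were counted was not given. PDZK1, the scaffold that holds apical carriers in place, was present everywhere, at 89.1, 109 and 96.6 CPM in 769-P and 51.1, 56.4, 64.1, 57.5 and 64.7 CPM in CAKI-2. It stood at 18.8, 41.5, 18.5, 27.1 and 17.3 CPM in 786-O and 17.4, 24.6 and 19.4 CPM in A498, which overlapped (adjusted p = 0.229). 769-P exceeded CAKI-2 by a log2 value of 0.78 ± 0.23 SE (adjusted p = 0.00885).

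Aminopeptidase N (ANPEP), gamma-glutamyltransferase (GGT1), dipeptidyl peptidase 4 (DPP4) and neprilysin (MME) are ectoenzymes of the brush border that trim peptides and glutathione. ANPEP (GRCh37 chr15:90328126-90358633) was high in A498 at 228, 213 and 226 CPM and in 769-P at 297, 279 and 376 CPM. It stood at 41.6, 62, 60.3, 39.1 and 37.3 CPM in 786-O. CAKI-2 was lowest at 0.273, 0.174, 0.161, 0.0780 and 0.106 CPM, where the libraries held 2 to 10 counts. CAKI-2 thus stood apart from all other lines, with a log2 difference of 8.06 ± 0.20 SE (adjusted p = 1.9e-12) from 786-O, the next in order, and of 10.62 ± 0.20 SE (adjusted p = 4.4e-13) from 769-P.

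GGT1 was high in 3 lines, at 249 to 372 CPM in 769-P, 223 to 267 in CAKI-2 and 160.2 to 306 in 786-O, no pair of which was called as different, and at 44.6 to 49 CPM in A498 (2.38 ± 0.18 SE, adjusted p = 3.8e-08 for CAKI-2 against A498). Related genes (6, with names of GGT pseudogenes, GGT5 or GGT light chains) had 73 to 98 counts in sum in A498, against 1152 to 1297 counts of GGT1 itself there. In 769-P they had 514 to 606, against 7015 to 9031. Reads could be split between GGT1 and any of them that are close copies, which was not tested. DPP4 was highest in CAKI-2 at 144 to 195 CPM and next in 786-O at 62 to 122 CPM (0.99 ± 0.21 SE, adjusted p = 8.4e-04). A498 at 36.9 to 42.3 CPM and 769-P at 27.5 to 42.9 CPM overlapped (adjusted p = 0.714). MME was lower, at 5.02 to 11.5 CPM in 769-P, 4.17 to 7.75 in 786-O, 2.47 to 3.96 in A498 and 0.898 to 2.38 in CAKI-2, and CAKI-2 lay below every library of the other lines.

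Among the enzymes, those of gluconeogenesis were at the limit of detection. PCK1, which commits oxaloacetate to glucose synthesis, had 4 to 16 counts per library in CAKI-2, 1 to 2 in 769-P and 0 in 786-O and A498. FBP1, a later step of the pathway and an enzyme known to be lost in ccRCC, had 4 to 8 counts in A498, 0 to 3 in CAKI-2, at most 1 in 786-O and 0 in 769-P. Glycine N-acyltransferase (GLYAT), which conjugates benzoate in mitochondria, had 4 to 16 counts in CAKI-2 and at most 2 in the others. None of the 3 was tested.

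Argininosuccinate synthase, by which the proximal tubule makes arginine from citrulline (ASS1, GRCh37 chr9:133320348-133376661), divided the lines widely. It stood at 76.9, 93 and 90.1 CPM in 769-P and at 35.5, 37.2, 28.9, 44.6 and 22 CPM in CAKI-2. In 786-O it stood at 4.85, 24.2, 4.10, 4.90 and 6.10 CPM and in A498 at 0.170, 0.113 and 0.0380 CPM, or 1 to 4 counts. 769-P was higher than all other lines and A498 lower, without overlap, and the log2 difference between these ends was 9.70 ± 0.75 SE (adjusted p = 3.5e-08). In A498 the 14 ASS1 pseudogenes of the table had 55 to 74 counts in sum, more than ASS1.

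Myo-inositol oxygenase (MIOX, GRCh37 chr22:50925213-50929077), an enzyme largely particular to the proximal tubule that breaks down inositol, reached 93.7, 81.3 and 97.5 CPM in 769-P. It stood at 3.42 to 4.55 CPM in A498, 2.44 to 4.12 in CAKI-2 and 0.263 to 1.02 in 786-O, so that 769-P exceeded the next line, A498, by a log2 value of 4.57 ± 0.24 SE (adjusted p = 7.8e-10). Glycine amidinotransferase (GATM), the first step of creatine synthesis, instead belonged to CAKI-2, at 9.34, 7.60, 7.53, 9.79 and 7.85 CPM. The other lines reached at most 1.26 CPM, in A498, which CAKI-2 exceeded by 2.99 ± 0.23 SE (adjusted p = 5.5e-08) on the log2 scale. Ketohexokinase (KHK) was at 2.65 to 4.06 CPM in CAKI-2 and at 1.03 to 2.29 CPM in the other lines, of which no pair was called as different. KHK overlaps CGREF1 on the other strand, which had 211 to 484 counts in CAKI-2 beside 76 to 166 of KHK. CGREF1 had 158 to 220 counts in A498, 236 to 374 in 769-P and 0 to 2 in 786-O. The use of strand in counting was not given, so that outside 786-O reads of both genes could not be told apart. Agmatinase (AGMAT) had at most 7 counts in 15 libraries and 50 counts in the sgKDM5C 4 library of 786-O.

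KIM-1 (HAVCR1, GRCh37 chr5:156453753-156496407) is hardly made by the healthy tubule and is switched on by injury, so that it stands at the opposite end of this programme. It was transcribed in all lines, at 539, 481 and 562 CPM in 769-P, 72.8, 82.4, 76.4, 65.3 and 82 CPM in CAKI-2 and 99.1, 161, 98.4, 126 and 102 CPM in 786-O. In A498 it stood at 9.28, 13.1 and 12.5 CPM. None of the 4 lines overlapped another, and all 6 pairs passed the test, with a log2 difference of 5.52 ± 0.20 SE (adjusted p = 2.4e-11) between the ends. The line with the highest HAVCR1 was thus also the line with the most members of the list transcribed.

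Other genes of the proximal tubule that are not on the list were read from 3 further lists. Of 28 other carriers, 14 were transcribed in 769-P, 12 in A498, 15 in CAKI-2 and 8 in 786-O, of 12 other brush border genes 5, 3, 4 and 3 in that order, and of 23 other enzymes 11, 9, 9 and 4. Every one that could be tested (20 carriers, 9 brush border genes and 17 enzymes) was called as differing between the lines, as were 91.5% of all genes. Against 769-P, 786-O was called lower for 13 and higher for 4 of 20 carriers, 5 and 1 of 9 brush border genes and 13 and 1 of 17 enzymes. Of all genes, 27.0% were called lower and 25.4% higher in that pair. A498 against 769-P gave 12 lower and 7 higher carriers, 4 and 3 brush border genes and 11 and 5 enzymes (32.3% lower and 38.8% higher of all genes). CAKI-2 against 769-P gave 9 lower and 6 higher carriers, 5 and 3 brush border genes and 10 and 5 enzymes (29.5% lower and 36.2% higher of all genes). Among those named by their level, the glucose exit carrier GLUT2 (SLC2A2) stood at 76.7 to 105 CPM in 769-P and at no more than 1.78 CPM elsewhere, and the phosphate and urate carrier SLC17A3 at 186 to 454 CPM in 769-P against 1.77 to 6.73 CPM in 786-O. Villin (VIL1), which bundles actin in microvilli, stood at 50.6 to 70.6 CPM in 769-P and at no more than 0.389 CPM elsewhere. The order was not the same for all, since aminopeptidase A (ENPEP) was highest in 786-O at 57.9 to 153 CPM and near 0 in 769-P at 0.0411 to 0.165, and the scaffold NHERF1 and the plasma peroxidase GPX3 were highest in A498 at 582 to 594 and 307 to 428 CPM.

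Of 9 transcription factors known from this epithelium, 6 were transcribed in 786-O and 7 in each of the other lines. All 9 were called as differing between lines, as were 91.5% of all genes. HNF4G, of the HNF4 family, stood at 107 to 165 CPM in 769-P and at 7.06 to 16.6 CPM in the others. HNF4A and PPARGC1A were singled out after their values had been seen. HNF4A, a main regulator of the mature proximal tubule, was transcribed only in A498 at 26.9 to 37 CPM, and 769-P, with the most members transcribed, held 0 or 1 count of it. PPARGC1A, a coactivator of mitochondrial genes, stood at 30.3 to 37.4 CPM in 769-P and 10.3 to 15.4 CPM in CAKI-2 and at no more than 2.36 CPM in the other lines.

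**Figure D4:**
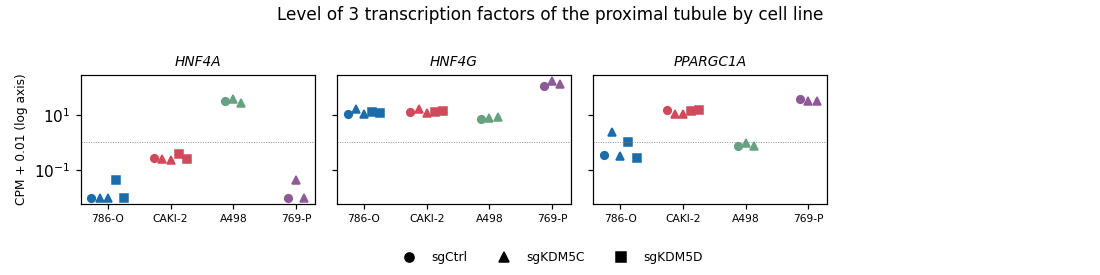
CPM + 0.01 (vertical log axis) of HNF4A, HNF4G and PPARGC1A in every library of the 4 lines (horizontal axis); circles are sgCtrl, triangles sgKDM5C, squares sgKDM5D, and the dotted line marks 1 CPM. HNF4G and PPARGC1A are highest in the 3 libraries of 769-P, whereas HNF4A is above 1 CPM in A498 only.

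Genes of other nephron segments were few. Of 21, 6 were transcribed in CAKI-2, 3 each in A498 and 769-P and 2 in 786-O, and UMOD, the marker of the thick ascending limb, was at 0 in 786-O and 769-P. The exception by level was CLDN16, a tight junction protein of that segment, at 207 to 238 CPM in CAKI-2 and 38.5 to 126 CPM in 769-P. Of 10 genes known to be raised in injured tubules, 7 to 9 were transcribed per line, and their sum was 2127 to 9449 CPM, with osteopontin (SPP1) making up most of it in CAKI-2 at 6432 to 8305 CPM. The part of these other cells or states in the levels of the 29 genes was not tested.

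No member passed edgeR's test in any comparison of genotypes. None was called for sgKDM5C against sgCtrl in 786-O (0.00991% of all genes called), CAKI-2 (0.0%), A498 (0.00496%) or 769-P (0.00496%), or as a mean of the 4 lines (0.00991%), and 0 were called for a difference of the effect between lines (0.0%). No member was called for sgKDM5D against sgCtrl in 786-O (0.0149%), CAKI-2 (0.0%), as their mean (0.0%) or for a difference between them (0.00496%). The same held for sgKDM5C against sgKDM5D in 786-O (0.0644%) and CAKI-2 (0.0%). Each line had 1 control library. In libraries simulated from these data, edgeR recovered 50% of genes changed by 1 on the log2 scale and 95% of those changed by 2 for sgKDM5C in 786-O, and 98% and 100% for the mean of the 4 lines. The genes changed there had at least 20 expected counts in the control of every line and were changed alike in all 4. Members below that level in a line are not covered by these shares.

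Without adjustment for the number of genes, 5 members had a p under 0.05 for sgKDM5C in 786-O (2.92% of all genes), 1 in CAKI-2 (1.94%), 1 in A498 (5.55%), 1 in 769-P (3.32%) and 1 for the mean of the lines (5.18%), and 3 for the difference between lines (2.29%). For sgKDM5D there were 2 in 786-O (1.82%), 1 in CAKI-2 (0.773%), 1 for their mean (1.5%) and 0 for their difference (1.47%). For sgKDM5C against sgKDM5D there were 6 in 786-O (4.78%) and 2 in CAKI-2 (3.38%). These counts are of 23 members. The 5 for sgKDM5C in 786-O were SLC34A1, ANPEP, AGMAT, AQP1 and ASS1. AGMAT had 91 counts over all libraries, 50 of them in the sgKDM5C 4 library of 786-O. It passed the filter of 60 counts only through that library. AQP1 had a mean of 6.33 counts in this comparison, and ASS1 was higher with 1 of the 2 guides. AGMAT and ASS1 were also among the 6 for sgKDM5C against sgKDM5D in 786-O. DESeq2 called 0 members in these comparisons, except for 1 (ANPEP) in sgKDM5C against sgKDM5D in 786-O. It called 55 of all 20175 genes there. The median log2 difference of the 23 members for sgKDM5C was -0.05 in 769-P, -0.07 in A498, -0.03 in CAKI-2 and 0.06 in 786-O, against medians of 0.00 to 0.02 for all genes, and for sgKDM5D it was -0.17 in 786-O (-0.11 with genes at 0 in a group set at the floor) and 0.02 in CAKI-2. For sgKDM5C against sgKDM5D it was 0.42 in 786-O (0.34 with the floor), with 18 of 23 above 0, and -0.02 in CAKI-2, with 10 of 23 above 0, where the median of all genes was 0.00 in both. Members are not replicates of a contrast, so that these counts are no test. The value of 786-O includes its sgKDM5C 4 library, which lay farthest within that line (0.283). The part of that library in the value was not tested.

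The phosphate carrier SLC34A1 was the one member on the same side of the control in all 8 sgKDM5C libraries with an unadjusted p under 0.05. Its level was 0.577, 0.676 and 0.987 CPM in 769-P, 0.170, 0.413 and 0.304 CPM in A498, 1.28, 1.57, 1.93, 1.72 and 1.45 CPM in CAKI-2 and 0.414, 1.33, 0.683, 0.460 and 0.478 CPM in 786-O. Behind these stood 4 to 84 counts per library, so that each single ratio was imprecise. The mean log2 difference was 0.83 ± 0.29 SE (unadjusted p = 0.0131, adjusted p = 0.901), and did not pass. In 786-O alone it was 1.28 ± 0.55 SE (unadjusted p = 0.0358, adjusted p = 1).

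ANPEP in 786-O stood at 62.0 and 60.3 CPM with the sgKDM5C guides, above the control at 41.6 and the sgKDM5D guides at 39.1 and 37.3, which overlapped neither. The log2 difference was 0.55 ± 0.18 SE (unadjusted p = 0.00913, adjusted p = 1) for sgKDM5C against the control and 0.68 ± 0.15 SE (unadjusted p = 4.0e-04, adjusted p = 0.258) for sgKDM5C against sgKDM5D. The latter passed with DESeq2 (0.68, adjusted p = 0.0384) and with every gene that had a count in the edgeR fit (adjusted p = 0.0119), and did not pass in the fit used throughout. For this comparison DESeq2 called 55 of 20175 genes, the fit with every counted gene 297 of 40196 and the fit used throughout 13 of 20175. In CAKI-2, where ANPEP was at 2 to 10 counts, both sgKDM5C libraries also lay above both sgKDM5D libraries but the control lay above all 4, and the difference was 0.82 ± 0.58 SE (unadjusted p = 0.255, adjusted p = 1). The mean sgKDM5D difference of both lines for ANPEP was -0.82 ± 0.32 SE (unadjusted p = 0.0274, adjusted p = 1). It came from CAKI-2 with its few counts (-1.52 ± 0.61 SE), while 786-O gave -0.12 ± 0.18 SE.

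MME in CAKI-2 was at 1.01 and 0.898 CPM with sgKDM5C against 2.38 CPM in the control, with 1.56 and 2.09 CPM for sgKDM5D, and the log2 difference from the control was -1.32 ± 0.44 SE (unadjusted p = 0.0102, adjusted p = 1). For MME both sgKDM5C libraries also lay below the control in 786-O (log2 ratios of -0.40 and -0.88) and above it in A498 (2.47, 3.90 and 3.96 CPM), while in 769-P guide 4 lay above and guide 5 below (0.69 and -0.50), and the test of a difference between the lines gave an unadjusted p of 0.0285. AMN in A498 was at 1.73 and 1.71 CPM with sgKDM5C against 3.62 CPM in the control (-1.07 ± 0.29 SE, unadjusted p = 0.00274, adjusted p = 0.749). It was called when A498 alone was in the fit (-1.09, adjusted p = 0.0444). That fit called 348 of 15127 genes for sgKDM5C in A498, where the fit used throughout called 1 of 20175. CUBN in 769-P was at 41.5 and 28.3 CPM against 17.8 CPM in the control (0.97 ± 0.29 SE, unadjusted p = 0.00498, adjusted p = 1). LRP2 in CAKI-2 was at 7.19 and 3.39 CPM with sgKDM5C and at 7.53 and 16.9 CPM with sgKDM5D (-1.22 ± 0.42 SE, unadjusted p = 0.0125, adjusted p = 1), so that the control at 8.14 CPM lay between the sgKDM5D guides. Among members with a mean of at least 20 counts, both guides lay beyond 1 on the log2 scale for MME in CAKI-2 and AMN in A498 and for no other member, line or target.

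Single libraries carried the widest departures. In the sgKDM5C 4 library of 786-O, ASS1 had 709 counts against 114 to 166 in the other libraries of 786-O, AGMAT had 50 against 0 to 3, and PDZK1 and DPP4 were at 41.5 and 122 CPM against 17.3 to 27.1 and 62.0 to 75.0 CPM. The sgKDM5C 5 library of 786-O lay near the control for all 4 genes. Without it, the log2 difference of ASS1 for sgKDM5C in 786-O was 2.32, a value that rests on the other guide alone. Over members with a mean of at least 20 counts, both sgKDM5C guides lay on the same side of the control for 10 of 18 in 769-P, 14 of 15 in A498, 12 of 16 in CAKI-2 and 6 of 11 in 786-O, and both sgKDM5D guides for 9 of 10 in 786-O and 6 of 15 in CAKI-2. Both guides share 1 control library, so that these shares are no test. Genes of the other proximal tubule lists gave 0 calls in all of these comparisons.

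**Figure D5:**
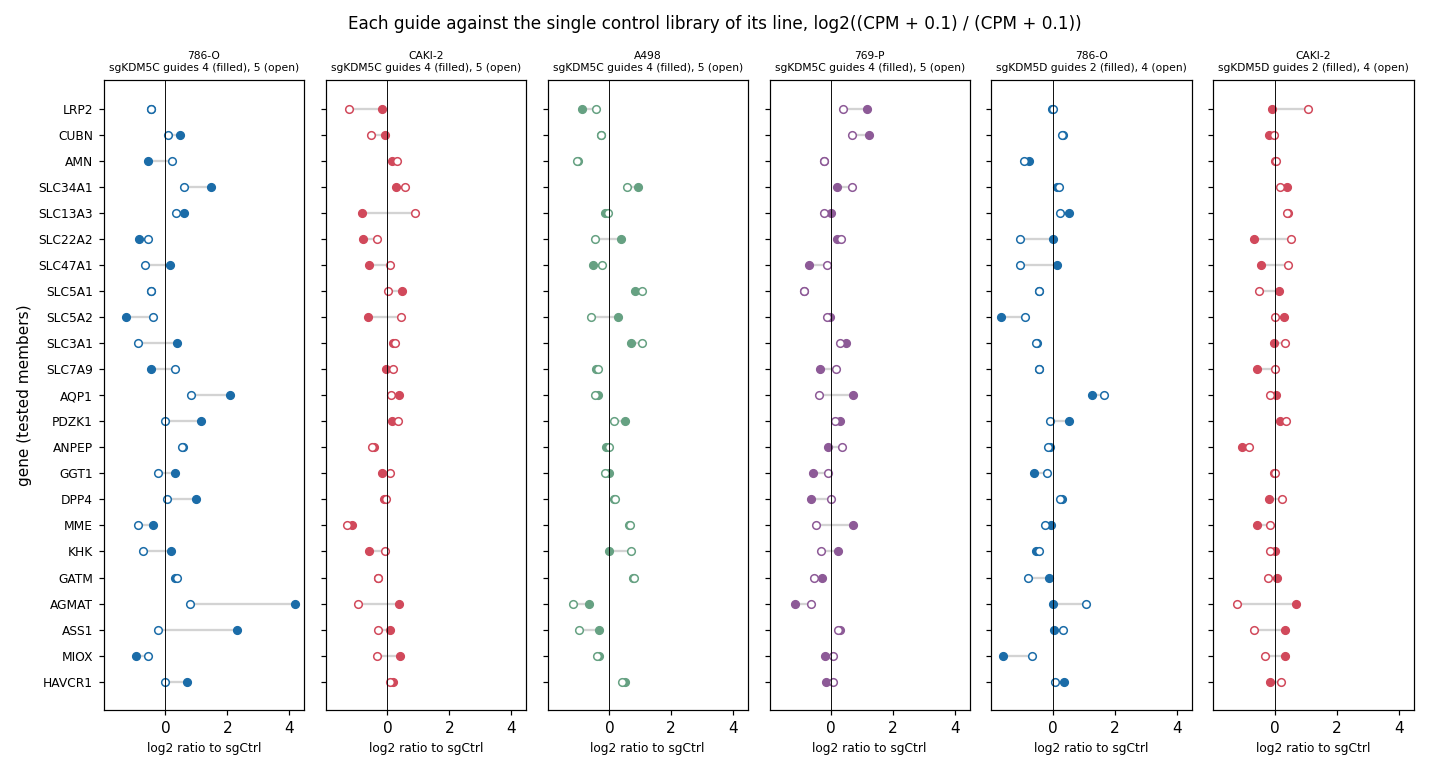
Log2 ratio to the control library of the same line (horizontal axis, CPM + 0.1) of each guide for the 23 tested members (vertical axis), in panels by line and guide target; filled and open points are the lower- and higher-numbered guide, joined by a line. Most points lie within 1 of 0, and the widest ratios are those of AGMAT and ASS1 for guide 4 of sgKDM5C in 786-O (filled points), which lie apart from guide 5.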

How the data were processed

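Total RNA of 16 libraries had been sequenced as paired ends from stranded TruSeq libraries. Raw counts per gene were deposited by the authors without normalization. Per the submitters' processing notes, Trimmomatic 0.38, STAR 2.5.2b and GRCh37 were used, and how reads were counted (tool, annotation, strand) is not given in the sources used here. The header left the gene column unnamed, so that each name was read for the column to its right. Symbols, intervals and canonical transcript lengths came from GENCODE release 44 lifted to GRCh37 (55538 of 57773 identifiers matched). No library was left out and no pair of libraries was alike within sampling noise.

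CPM were counts per 1000000 of the TMM-scaled total, and RPKM were CPM per 1000 bases of canonical transcript. A gene needed 60 counts or more over all libraries, which left 20175, fitted in edgeR 4.0.16 (R 4.3.3) by the quasi-likelihood F-test over all 16 libraries, with 1 mean for each of the 10 groups of line and genotype and 6 residual degrees of freedom (biological coefficient of variation 15.2%). The guides of a target were its replicates. The level of a line was the mean of its sgCtrl library (weight 1 of 3) and its sgKDM5C libraries (2 of 3). The Benjamini-Hochberg adjustment ran over every gene fitted, and the threshold for a call was an adjusted p of 0.05. The SE is the size of the log2 difference divided by the square root of F. Floors of 3 counts cover counting error only.

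The members and all lists were chosen with earlier results of these data known. All 29 members are named. For genotypes, members called are named, otherwise up to 3 with the largest change among those with an unadjusted p under 0.05, a mean of at least 20 counts and all mutant libraries on 1 side, and of the other lists up to 5 genes by highest level. Of 125 list genes 122 were matched, and some of these are counted with their list but not reported here singly. The procedure was tested on simulated data (100 genes changed at each size, drawn from genes with at least 20 expected counts). For A498 against 769-P edgeR recovered 84% of genes changed by 1 on the log2 scale and 99% of those changed by 2. DESeq2 1.42.0, other size factors, other filters, other sets of libraries, a replicate block and leaving out each library were tried as alternatives. Sequences were taken from RefSeq promoters.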

Additional observations from a re-analysis of the deposited data

How the results depend on the processing

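The pairwise differences between lines were refitted for every member called in them. Of these refits, 2570 kept their direction and their call, 44 lost the call and 1 turned. The 1 that turned was AMN in CAKI-2 against A498, at -0.31 with the control libraries alone, and 23 of the 44 lost calls came from that same setting, which has 1 library per line. Leaving out a single library lost the call of SLC34A1, SLC5A2, SLC3A1, MME, AMN and SLC47A1 in at least 1 pair. These were 786-O against CAKI-2 for SLC34A1 (without 786-O sgCtrl), 786-O against A498 for SLC5A2 (without 786-O or A498 sgKDM5C 4), SLC3A1 (without 786-O sgKDM5C 4 or A498 sgCtrl), MME (without either sgCtrl) and SLC34A1 (without 786-O sgKDM5C 4), CAKI-2 against A498 for SLC47A1 (without A498 sgKDM5C 4), and A498 against 769-P for SLC34A1 (without A498 sgCtrl). The cause was not tested.

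For sgKDM5C against sgCtrl in 786-O, 2 members (AGMAT and ASS1) were called with no filter on low counts, which called 136 of all 40196 genes. Without sgKDM5C 5, ASS1 had a log2 difference of 2.32 there, from sgKDM5C 4 alone. For A498, 1 (AMN) was called with only that line in the fit, which called 348 of 15127 genes. For a difference of the sgKDM5C effect between lines, 2 (AGMAT and ASS1) were called with no filter (106 of 40196 genes called). For sgKDM5C against sgKDM5D, 1 in 786-O (ANPEP) was called with DESeq2 (55 of 20175 genes called). With no filter, 3 were called in 786-O (AGMAT, ANPEP and ASS1, with 297 of 40196 genes called) and 1 in CAKI-2 (LRP2, with 109 of 40196). Without sgKDM5C 5, AGMAT and ASS1 had log2 differences of 4.92 and 2.14 in 786-O, from sgKDM5C 4 alone. At a threshold of 5 CPM, 11 members were transcribed in 769-P, 8 in CAKI-2 and 6 in A498, and at 1 RPKM 8 in A498. The same guides 4 and 5 against KDM5C were used in every line, and their guide 4 minus guide 5 differences in 2 lines correlated at -0.223 to 0.291 over 12075 genes. With a replicate block for the guide number, 0 members were called in every genotype comparison fitted with it and 15 to 20 in pairs of lines, with 19 for CAKI-2 against A498. Leaving out single libraries gave 21 to 23 members called between the 4 lines and 14 to 21 in pairs. Depth limits the statements on members under 20 counts, and 1 control library per line limits all genotype comparisons.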

Other observations

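Several other genes of the proximal tubule, named for their level in any line, had line patterns of their own. The apical drug exporter MRP2 (ABCC2) stood at 3.38 to 8.48 CPM in 786-O and at 185 to 248 in A498, 270.0 to 353 in CAKI-2 and 321 to 355 in 769-P. The bicarbonate carrier NBCe1 (SLC4A4) reached 99.5 to 147 CPM in 769-P, and the phosphate carrier SLC17A1 reached 147 to 192 CPM there against 0.188 to 1.40 in 786-O.

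Homogentisate dioxygenase (HGD), of tyrosine breakdown, was transcribed in all 4 lines, at 26.4 to 32.7 CPM in 786-O, 57.6 to 69.5 in CAKI-2, 70.7 to 75.3 in A498 and 120.0 to 126 in 769-P. The glucuronosyltransferase UGT2B7 stood at 90.7 to 92.8 CPM in 769-P and 50.9 to 59.7 in A498, and at no more than 1.03 CPM in 786-O and CAKI-2. DAB2, the adaptor of megalin, stood at 45.0 to 54.1 CPM in 786-O and 121 to 138 in A498, lines in which megalin itself was at the floor, and at 6.86 to 10.01 CPM in CAKI-2, the line with the highest megalin.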
